A study of Mus musculus with 6 samples.

Results

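Immediate-early genes of the T cell receptor response were followed in Th17 cells that had been cultured with or without desIgf1. The members were 10 genes chosen by symbol for their role, namely the nuclear receptors Nr4a1, Nr4a2 and Nr4a3, the zinc-finger factors Egr1, Egr2 and Egr3, and the AP-1 subunits Fos, Fosl2, Jun and Junb. All 10 were found among the 39179 gene identifiers of the count files, and all 10 passed the filter on low counts. The 3 desIgf1 libraries came from cultures with 30 ng/mL desIgf1, a shortened IGF1 with little affinity for the IGF-binding proteins, and the 3 control libraries from cultures without it. Everything else was shared by both groups: C57BL/6 mice with an IL17a/hCD2, Ifng/Thy1.1 and Foxp3/GFP reporter, naive CD4+ T cells, 5 µg/mL soluble anti-CD3 with irradiated splenocytes depleted of CD4+ cells, 20 ng/mL IL-6, 2.5 ng/mL TGF-β, 10 µg/mL each of antibodies to IFN-γ and IL-4, and 5 days of culture. Cells positive for hCD2 and negative for the other reporters were sorted for RNA. The treatment text of the labels lists desIgf1 for every library, and the groups here follow the titles and descriptions. The sources used here give no age of the mice and do not tell which libraries shared an animal or culture. The p-values therefore cover only the scatter among these 6 libraries.

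Engagement of the T cell receptor opens calcium, calcineurin and NFAT signalling and the RAS, ERK and protein kinase C branches, and immediate-early genes are the first to be transcribed, since the factors that switch them on are already present in the cell. NR4A proteins are orphan nuclear receptors, EGR proteins bind GC-rich DNA through zinc fingers, and FOS and JUN proteins pair through leucine zippers to form AP-1. In mouse T cells Nr4a1 is widely used as a readout of receptor signal strength, Egr2 and Egr3 are linked to restraint of activation, and JUNB and FOSL2 are among the AP-1 subunits studied in the Th17 programme. The IGF1 receptor signals through PI3K, AKT and ERK.

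The letters before the start sites are given for the NR4A genes, whose values differed most between the groups, and for Egr2, whose values differed little between them. RefSeq start sites (GRCm38.p6) were read for 8 members in 12 windows of 250 bases. Egr1 was left out of this search, and for Egr3 no window was at hand. TGACG, the core of the site of CREB and ATF factors, was searched on both strands, as was the CArG box, the site of serum response factor. The capitals mark these motifs. Nr4a1 lies on the plus strand (chr15:101266596-101266845), Nr4a2 on the minus strand (chr2:57124004-57124253), Nr4a3 on the plus strand (chr4:48045055-48045152, shortened where an annotated exon begins) and Egr2 on the plus strand (chr10:67537619-67537868).
Nr4a1: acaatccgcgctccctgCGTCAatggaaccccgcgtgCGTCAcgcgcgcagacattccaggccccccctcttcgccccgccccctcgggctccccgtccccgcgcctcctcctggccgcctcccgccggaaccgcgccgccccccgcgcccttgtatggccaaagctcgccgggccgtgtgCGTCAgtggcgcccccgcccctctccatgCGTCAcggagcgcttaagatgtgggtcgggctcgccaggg
Nr4a2: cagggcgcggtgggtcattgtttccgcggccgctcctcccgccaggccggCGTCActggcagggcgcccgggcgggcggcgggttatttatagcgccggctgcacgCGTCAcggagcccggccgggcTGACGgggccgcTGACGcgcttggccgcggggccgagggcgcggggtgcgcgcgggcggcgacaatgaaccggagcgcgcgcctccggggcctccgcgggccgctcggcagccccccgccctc
Nr4a3: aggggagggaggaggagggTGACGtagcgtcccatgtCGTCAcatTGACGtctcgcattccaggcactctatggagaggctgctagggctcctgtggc
Egr2: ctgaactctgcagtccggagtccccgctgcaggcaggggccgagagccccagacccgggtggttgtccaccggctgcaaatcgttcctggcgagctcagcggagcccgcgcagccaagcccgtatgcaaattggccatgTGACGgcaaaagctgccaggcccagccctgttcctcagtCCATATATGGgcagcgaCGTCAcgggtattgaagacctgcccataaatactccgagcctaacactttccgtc
Each of the 3 NR4A windows of 250 bases held 4 copies of TGACG, of which the last of Nr4a3 falls in its exon and is not shown. Of all 32851 windows, 17.8% held at least 1 copy and 0.137% held 4 or more, a threshold taken after the copies had been counted. Egr2 had 5 of the 12 windows, and the one shown was chosen because it holds both motifs. It and 2 windows that overlap it held 2 copies of TGACG and a CArG box, the window starting at 67537316 held a CArG box and 0 copies of TGACG, and the one starting at 67535249, just before the annotated gene start, held neither. A CArG box was in 1.47% of all windows. Fos held 2 copies of TGACG, Junb 1 and Jun and Fosl2 0. All 250 bases of the Fosl2 window lie in an annotated exon of Fosl2. The full palindrome TGACGTCA, the AP-1 motif TGANTCA and the NR4A half-site AAAGGTCA were in none of the 12 windows, and in 1.55%, 6.75% and 1.34% of all windows. The motif GCGNGGGCG, a form of the EGR site, was in the windows of Nr4a1, Nr4a2 and Fosl2 and in 4.70% of all windows. These are matches of letters and not measured sites.

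Gene counts summed to 34567899 to 47929948 per library. The cells carried the markers of their label, with 12 of 12 T cell and Th17 markers passing the filter and Cd4 leading at 1657 to 1950 CPM (gene counts scaled to a fixed library size with TMM factors). These 12 markers summed to 6883, 7865 and 7380 CPM in desIgf1 libraries 1, 2 and 3, against 6423, 6198 and 6476 CPM in controls 1, 2 and 3, without overlap. Of them 10 were higher and 2 lower with desIgf1, at a median log2 fold change of 0.25, and edgeR called 0. Summed B cell markers were at 56.8 to 97.8 CPM with desIgf1 and 69.1 to 175 CPM in controls, nearly all of it Ighm, while Cd79a, Ms4a1, Pax5 and Cd22 stayed under 1 CPM in every library. Macrophage and monocyte markers summed to 9.14 to 13.9 and 4.07 to 11.7 CPM, dendritic cell markers to 1.02 to 3.31 and 0.745 to 2.29 CPM, and CD8 and NK cell markers to 9.09 to 14.5 and 7.15 to 10.997 CPM, each with desIgf1 first. Fcgr1, C1qb, Xcr1, Siglech, Cd209a and Ncr1 had 0 counts throughout. Neutrophil and erythroid markers stayed under 1 CPM in every library. The part of these traces in the results was not tested. The libraries of number 1 stood apart in transcripts tied to sex, with Xist at 2219 and 1705 CPM in desIgf1 and control library 1 and under 1 CPM in the other 4, and summed Y-linked transcripts under 1 CPM in number 1 and at 301 to 430 CPM elsewhere.

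Immediate-early transcripts were present on day 5 in every library, at levels that differed widely between genes. To compare genes, levels were divided by exon length (RPKM, mean over the 6 libraries). Junb was highest at 258 RPKM, above 98.4% of the 13846 tested genes, and ranged from 223 to 318 RPKM. Nr4a1 followed at 75.4 RPKM (50.1 to 110), Egr1 at 43.8 RPKM (29.9 to 64.1) and Jun at 31.2 RPKM (26.0 to 36.4). The ranges of Nr4a1 and Egr1 overlapped, as did those of Egr1 and Jun, while Junb lay above every other member. Fos at 17.5, Egr2 at 17.2, Egr3 at 15.4, Fosl2 at 14.6 and Nr4a3 at 13.3 RPKM formed a middle group whose ranges, from 5.25 to 26.0 RPKM over all 5 genes, also overlapped. Nr4a2 was lowest at 1.96 RPKM (1.40 to 3.97), above 29.1% of tested genes, and below the range of every other member.

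Between desIgf1 and control cultures none of the 10 genes passed the test across all genes. edgeR's quasi-likelihood test called 0 members at an adjusted p of 0.05, where it called 0 of 13846 genes (0%). Their adjusted p-values ran from 0.452 to 0.985. At an unadjusted p under 0.05 there was 1 member, Nr4a3, against 8.16% of all genes. DESeq2 also called 0 members, against 1.48% of the genes to which it gave an adjusted p, and limma voom called 0 members and 0 genes. Same-numbered libraries of the 2 groups deviated together and were treated as pairs. With the replicate number as a block, edgeR again called 0 members, against 0.318% of all genes, with 2 members at an unadjusted p under 0.05, Nr4a1 and Nr4a3, against 14.3% of all genes. The median log2 fold change of the members was 0.16, with 9 above 0 and 1 below, against a median of -0.01 over all tested genes and 0.25 over the T cell and Th17 markers, whose part in the members' values was not tested. In such sorted bulk RNA a higher level in each cell and a larger share of cells with the transcript cannot be told apart.

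**Figure D1:**
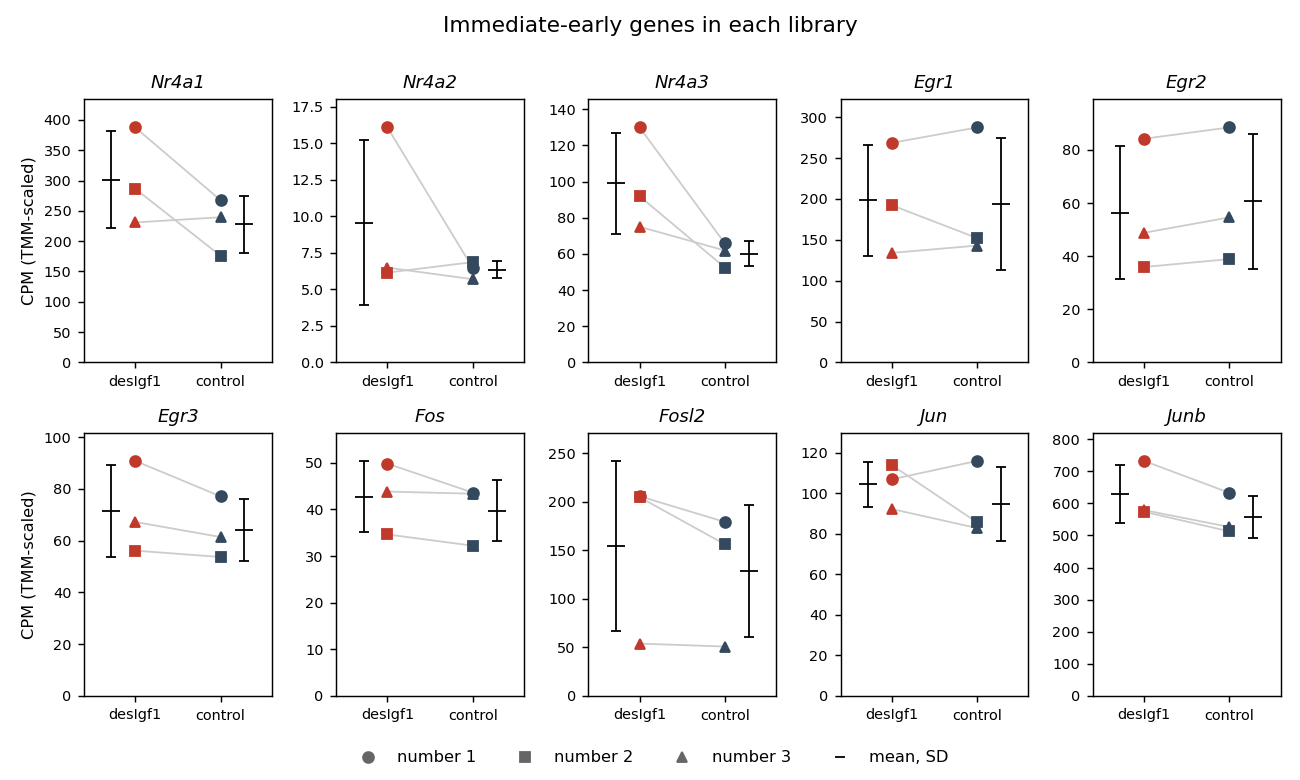
CPM of each gene (y axis, TMM-scaled, from 0) in the 3 desIgf1 libraries (red, left) and the 3 control libraries (dark, right), with a grey line between libraries of the same replicate number and black bars for mean and SD (n = 3). Nr4a3 is the 1 gene whose groups do not overlap, at 75.0 to 130 CPM with desIgf1 and 52.5 to 65.8 CPM in controls, while Egr1, Egr2 and Fosl2 spread mainly between numbers.

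Nr4a3 (ENSMUSG00000028341, chromosome 4, 48045153 to 48086447, plus strand, in GRCm38 by GENCODE M21 as for all members) stood farthest apart between the groups. It encodes the NOR orphan receptor of the NR4A family. Its level was 130, 91.9 and 75.0 CPM in desIgf1 libraries 1, 2 and 3, against 65.8, 52.5 and 61.9 CPM in control libraries 1, 2 and 3. All desIgf1 libraries lay above all controls, and the margin was narrowest in number 3. Nr4a3 was the only member without overlap in either direction, 1 of 10, where 13.5% of all tested genes did not overlap and 7.31% lay above with desIgf1. Its log2 fold change was 0.72 ± 0.20 (SE), a 1.65-fold difference with a 95% interval of 0.24 to 1.20 on the log2 scale, and it did not pass (edgeR adjusted p = 0.452). With the block it was 0.69 ± 0.15 (adjusted p = 0.153), and DESeq2 gave an adjusted p of 0.0781. Intervals here cover each gene on its own and are not adjusted for the number of genes.

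Nr4a1 (ENSMUSG00000023034, chromosome 15, 101254269 to 101274795, plus strand), which encodes NUR77, was at 388, 286 and 231 CPM in desIgf1 libraries 1, 2 and 3, against 268, 176 and 239 CPM in controls 1, 2 and 3. In numbers 1 and 2 the desIgf1 library was 1.45-fold and 1.63-fold above its control, and in number 3 the ratio was 0.964. The groups overlapped. On the log2 scale the difference was 0.41 ± 0.22 (95% interval -0.11 to 0.92, edgeR adjusted p = 0.639), and 0.40 ± 0.16 with the block (adjusted p = 0.344). In the blocked fit without both libraries of number 3, Nr4a1, 0.62 higher on the log2 scale (adjusted p = 0.0172), and Nr4a3, 0.90 higher (adjusted p = 0.00310), both passed, in a fit that called 7.64% of all genes. Without both libraries of number 2 Nr4a3 passed at 0.63 (adjusted p = 0.0467) and Nr4a1 did not, in a fit that called 4.42% of all genes. Without both libraries of number 1 neither passed, at 0.54 for Nr4a3 (adjusted p = 0.640) and 0.33 for Nr4a1, in a fit that called 0.513% of all genes.

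Nr4a2 (ENSMUSG00000026826, chromosome 2, 57106830 to 57124003, minus strand), the gene of NURR, was the scarcest member, with 199 to 643 counts per library. It was at 16.1, 6.15 and 6.49 CPM in desIgf1 libraries 1, 2 and 3, against 6.47, 6.87 and 5.70 CPM in controls 1, 2 and 3. Its higher mean with desIgf1 rests on library 1, since the log2 fold change was 0.59 ± 0.38 (edgeR adjusted p = 0.675) over all libraries and -0.01 without desIgf1 library 1.

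Ratios within a library do not depend on its scaling. The Nr4a3 over Nr4a1 ratio of CPM was 0.335, 0.321 and 0.325 in desIgf1 libraries 1, 2 and 3, against 0.246, 0.298 and 0.258 in controls 1, 2 and 3. The ratio was higher in every desIgf1 library than in any control. Summed over each family, NR4A CPM divided by EGR CPM was 1.20, 1.35 and 1.25 with desIgf1, against 0.750, 0.961 and 1.19 in controls, with the closest values, both 1.2 when rounded, in desIgf1 library 1 and control library 3. These ratios were chosen after the values had been seen and were not tested.

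EGR genes showed small differences between the groups and large ones between replicate numbers. Egr1 (ENSMUSG00000038418, chromosome 18, 34859823 to 34864984, plus strand), the most abundant of them, was at 269, 192 and 134 CPM in desIgf1 libraries 1, 2 and 3, against 287, 152 and 143 CPM in controls 1, 2 and 3. Both number 1 libraries were highest, and the groups overlapped over nearly their whole range. On the log2 scale they differed by 0.03 ± 0.33 (edgeR adjusted p = 0.985), and 0.05 with the block, with a 95% interval of -0.24 to 0.34.

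Egr2 (ENSMUSG00000037868, chromosome 10, 67535475 to 67542188, plus strand) was at 84.2, 35.9 and 48.8 CPM in desIgf1 libraries 1, 2 and 3, against 88.4, 38.9 and 54.6 CPM in controls 1, 2 and 3. The order of the numbers was the same in both groups, and each desIgf1 library was slightly below its control, at 0.952, 0.923 and 0.894 of it. Its log2 fold change was -0.11 ± 0.38 (edgeR adjusted p = 0.949). With the block it was -0.12 ± 0.09 (adjusted p = 0.575), with a 95% interval of -0.33 to 0.10.

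Egr3 (ENSMUSG00000033730, chromosome 14, 70077203 to 70082614, plus strand) was at 90.8, 56.1 and 67.2 CPM in desIgf1 libraries 1, 2 and 3, against 77.1, 53.7 and 61.4 CPM in controls 1, 2 and 3. Each desIgf1 library was above its control, by 1.05-fold to 1.18-fold, and the groups overlapped. Its blocked log2 fold change was 0.14 ± 0.09 (edgeR adjusted p = 0.508), with a 95% interval of -0.08 to 0.37. The blocked intervals of the 3 EGR genes did not reach a 1.5-fold difference in either direction. Their group-only 95% intervals were wider, and each passed 1.5-fold in at least 1 direction. On the log2 scale they were -0.76 to 0.82 for Egr1, -1.01 to 0.79 for Egr2 and -0.32 to 0.64 for Egr3.

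**Figure D2:**
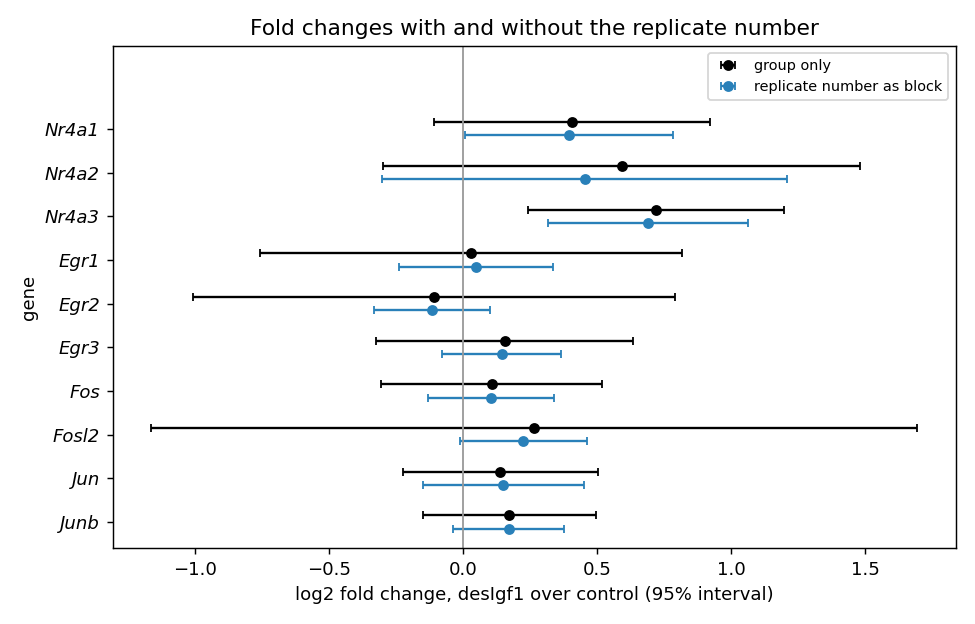
Log2 fold change of desIgf1 over control (x axis) for each gene (y axis), with 95% intervals, from edgeR with the group alone (black) and with the replicate number as a block (blue). Nr4a3 is at 0.72 and 0.69, and the interval of Fosl2 is -1.16 to 1.69 with the group alone and -0.01 to 0.46 with the block.

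Junb (ENSMUSG00000052837, chromosome 8, 84974484 to 84978718, minus strand), a JUN-family partner of BATF in Th17 cells of the mouse, was at 733, 574 and 579 CPM in desIgf1 libraries 1, 2 and 3, against 633, 513 and 526 CPM in controls 1, 2 and 3. Each desIgf1 library was 1.10-fold to 1.16-fold above its control, and the groups overlapped. The log2 fold change was 0.17 ± 0.14 (edgeR adjusted p = 0.722), and 0.17 ± 0.08 with the block (adjusted p = 0.422). It overlaps Prdx2 on the other strand by 351 bases. Prdx2 had 7148 to 10582 counts, and the sources used here do not give the strand setting of the counting.

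Jun (ENSMUSG00000052684, chromosome 4, 95049034 to 95052222, minus strand) was at 107, 114 and 92.2 CPM in desIgf1 libraries 1, 2 and 3, against 116, 85.6 and 82.8 CPM in controls 1, 2 and 3. The highest library was a control and the groups overlapped, with a log2 fold change of 0.14 ± 0.16 (edgeR adjusted p = 0.816). The antisense gene Junos overlaps Jun and had 43 to 71 counts, few beside the 2892 to 5290 of Jun. The Jun over Junb ratio of CPM was 0.146 to 0.199 with desIgf1 and 0.157 to 0.183 in controls.

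Fos (ENSMUSG00000021250, chromosome 12, 85473890 to 85477273, plus strand) was at 49.8, 34.6 and 43.8 CPM in desIgf1 libraries 1, 2 and 3, against 43.6, 32.2 and 43.4 CPM in controls 1, 2 and 3. Libraries of number 2 were lowest in both groups. The log2 fold change was 0.11 ± 0.18 (edgeR adjusted p = 0.876), and the blocked 95% interval was -0.13 to 0.34.

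Fosl2 (ENSMUSG00000029135, chromosome 5, 32135801 to 32157842, plus strand), the gene of FRA2, varied most of the 10 between libraries. It was at 206, 205 and 53.8 CPM in desIgf1 libraries 1, 2 and 3, against 179, 156 and 50.8 CPM in controls 1, 2 and 3. Both number 3 libraries were far below the other 4, while in each number the desIgf1 library was 1.06-fold to 1.31-fold above its control. The log2 fold change was 0.26 ± 0.60 with the group alone (edgeR adjusted p = 0.918) and 0.23 ± 0.10 with the block (adjusted p = 0.372). The Fosl2 over Junb ratio of CPM was 0.281, 0.357 and 0.0930 in desIgf1 libraries 1, 2 and 3, against 0.283, 0.304 and 0.0965 in controls 1, 2 and 3. In number 3 Fosl2 was thus low relative to Junb in both groups alike.

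The replicate number went with larger differences than desIgf1 did for 9 of the 10 genes, Nr4a3 being the exception. The difference in log2 CPM between the highest and the lowest number, averaged over both groups, was 0.33 to 1.88 with a median of 0.56, and the size of the mean difference between desIgf1 and control had a median of 0.16. Over all tested genes the medians were 0.30 and 0.16, and the number gave the larger difference for 72.8%. The number difference is a highest minus a lowest of 3 values and the other a difference of 2 means, so their sizes are set side by side as a description. Egr2 differed 2.31-fold between numbers 1 and 2, Egr1 2.01-fold between numbers 1 and 3 and Fosl2 3.67-fold between numbers 1 and 3.

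All 10 genes had their highest mean in number 1, where 30.6% of all tested genes did. Library 1 was the highest of its group in both groups for 8 of the 10, against 14.1% of all tested genes. The exceptions were Nr4a2, highest in control library 2, and Jun, highest in desIgf1 library 2. Among 22 other immediate-early and SRF or ERK target genes 12 had their highest mean in number 1, and 9 were highest in library 1 of both groups. Among 10 tested heat-shock and stress genes 7 had their highest mean in number 1, but only 2 were highest in library 1 of both groups. The genes of one signalling response are not independent of each other. Number 1 is also the number set apart by Xist and Y-linked transcripts, and sex and any other property of number 1 cannot be told apart.

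**Figure D3:**
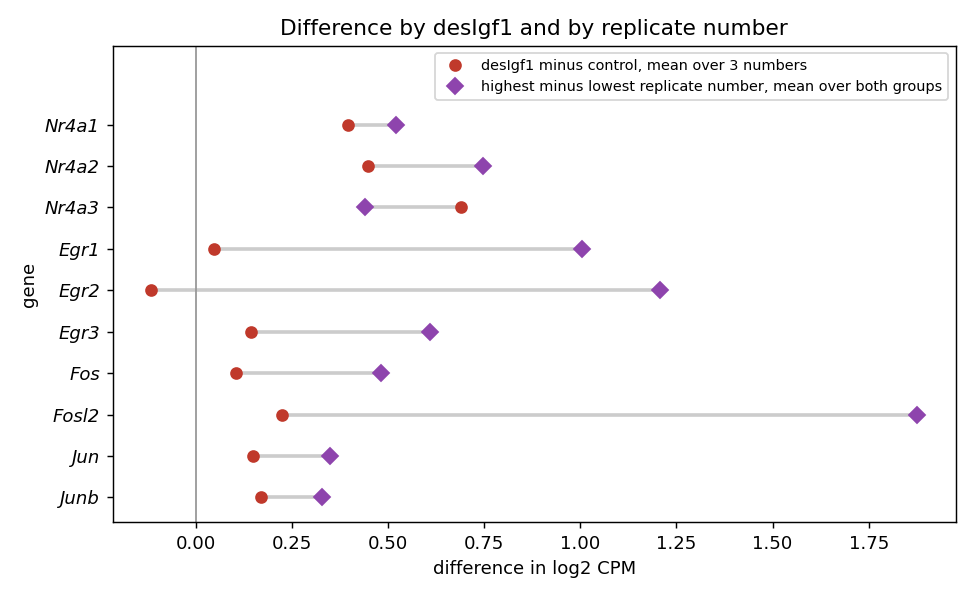
Difference in log2 CPM (x axis) for each gene (y axis) by desIgf1 (red circles, mean over the 3 numbers) and by replicate number (purple diamonds, highest minus lowest number, mean over both groups). For 9 genes the purple diamond lies to the right of the red circle, and for Nr4a3 the red circle lies at 0.69 and the purple diamond at 0.44.

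Counted by pairs, Nr4a3, Egr3, Fos, Fosl2 and Junb were higher with desIgf1 in all 3 numbers, 5 of 10, where 20.9% of all tested genes were. Egr2 was lower in all 3, 1 of 10, against 17.2%. For Fos the margin was as small as 1.01-fold. These members share libraries and a signalling response, so their directions are not separate observations.

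The remaining AP-1 and basic leucine zipper genes gave 0 calls among 10 tested, with or without the block. Their median log2 fold change was 0.07, with 6 higher and 4 lower. Jund, the most abundant of them, was at 418 ± 26.2 CPM with desIgf1 and 383 ± 20.0 CPM in controls (SD, n = 3 each). Batf, the AP-1 partner that Th17 differentiation of the mouse needs, was at 136 ± 25.4 and 123 ± 28.1 CPM. Fosb was at 14.9 ± 3.69 and 16.5 ± 6.33 CPM, and Fosl1 at 1.07 ± 0.795 and 1.79 ± 1.25 CPM, again with desIgf1 first. The small MAF gene Mafk was at 27.0 ± 1.85 and 30.2 ± 2.71 CPM, and Batf3 at 3.77 ± 2.93 and 2.27 ± 0.922 CPM in the same order. Jdp2, a repressor that pairs with JUN proteins, was at 10.8, 10.7 and 12.0 CPM in desIgf1 libraries 1, 2 and 3, against 2.57, 1.29 and 9.91 CPM in controls 1, 2 and 3. The desIgf1 libraries lay above all controls, though control library 3 was close (log2 fold change 1.29 ± 0.66, edgeR adjusted p = 0.633, and 1.74 with the block at an adjusted p of 0.242).

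Of the 22 other immediate-early and SRF or ERK target genes 0 were called, with a median log2 fold change of 0.08, 14 higher and 8 lower. The 4 with the smallest p without the block were all higher with desIgf1. They were Gadd45b, at 25.1 ± 3.46 and 18.7 ± 2.64 CPM, the ERK phosphatase gene Dusp6, at 54.9 ± 1.63 and 45.9 ± 4.47 CPM, Klf6, at 106 ± 12.9 and 82.8 ± 18.3 CPM, and Arc, at 7.43 ± 0.687 and 5.60 ± 0.887 CPM, each in desIgf1 and then control libraries. Their edgeR adjusted p-values were 0.566 to 0.630, and 0.261 to 0.348 with the block. In the blocked fit the smallest p was that of Ier3, higher with desIgf1 in all 3 numbers (edgeR adjusted p = 0.170). Ier5, also among the 4 smallest there, was lower in all 3 (edgeR adjusted p = 0.289).

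Among 13 tested EGR relatives, corepressors and reported targets of EGR2 and EGR3 0 were called, with 9 higher and 4 lower and a median of 0.13. Egr4, the fourth gene of the family, was scarce, at 0.551, 0.427 and 0.868 CPM in desIgf1 libraries 1, 2 and 3, against 1.64, 1.22 and 1.72 CPM in controls 1, 2 and 3. The groups did not overlap. Its fitted difference of -1.30 ± 0.37 on the log2 scale missed the threshold, at edgeR adjusted p-values of 0.452 and, blocked, 0.153. Dgka, a diacylglycerol kinase that limits RAS signalling, was at 864 ± 58.7 CPM with desIgf1 and 1276 ± 167 CPM in controls, or -0.56 ± 0.12 on the log2 scale (edgeR adjusted p = 0.328, or 0.109 when blocked). Cblb, a ubiquitin ligase that restrains T cell activation, was at 440 ± 112 and 259 ± 39.9 CPM, or 0.76 ± 0.20 on the log2 scale (edgeR adjusted p = 0.406, or 0.227 when blocked). Neither Dgka nor Cblb overlapped between groups, and both were called by DESeq2 alone of the tests over all 6 libraries (adjusted p = 0.0115 and 0.0420). The ligase gene Itch was at 122 ± 8.36 and 104 ± 1.88 CPM. Ndrg1 had the smallest p of this list in the blocked fit (edgeR adjusted p = 0.0512, and 0.609 without the block). Its blocked log2 fold change was 1.19 ± 0.15. It was higher with desIgf1 in each number, with overlap between the groups.

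The 9 coinhibitory and dysfunction genes linked to NR4A factors had a median log2 fold change of -0.16, with 3 higher, 6 lower and 0 called. Tox2 was at 101 ± 8.85 CPM with desIgf1 and 79.0 ± 16.1 CPM in controls, and Ctla4 at 1192 ± 380 and 924 ± 257 CPM. Tigit was at 4.23 ± 0.711 and 6.74 ± 2.75 CPM, and Entpd1 at 2.76 ± 0.804 and 4.45 ± 2.18 CPM. Their edgeR adjusted p-values were 0.625 to 0.701.

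Of 17 NFAT, NF-κB and other activation factors 0 were called, with 11 higher, 6 lower and a median of 0.09. The 4 with the smallest p were all regulators of NF-κB or its subunits, as are most genes chosen for this list. The subunit genes Nfkb1 and Rela had log2 fold changes of 0.02 and -0.02. Tnfaip3, the gene of the A20 deubiquitinase, was at 203 ± 42.7 CPM with desIgf1 and 139 ± 6.21 CPM in controls (log2 fold change 0.55 ± 0.15, edgeR adjusted p = 0.452, and 0.216 with the block). The inhibitor genes were Nfkbia, at 365 ± 31.6 and 294 ± 37.2 CPM, and Nfkbie, at 84.6 ± 11.6 and 64.9 ± 7.30 CPM. Tnfaip3, Nfkbia and Nfkbie lay above all controls in every desIgf1 library, 3 of 17, where 7.31% of all tested genes did. Relb was at 181 ± 9.33 and 152 ± 19.2 CPM, with overlap.

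Among 15 tested activation surface and cytokine genes 11 were higher and 4 lower, with a median log2 fold change of 0.20 and 0 called. With the block the median was 0.09, against 0.16 for the 10 members in the same fit. Cd40lg, the CD40 ligand, had the smallest p without the block. It was at 102, 77.0 and 84.6 CPM in desIgf1 libraries 1, 2 and 3, against 50.3, 51.4 and 47.2 CPM in controls 1, 2 and 3 (log2 fold change 0.82 ± 0.13, edgeR adjusted p = 0.170, 0.0633 with the block, and called by DESeq2 at 5.30e-05). In the blocked fit Tnf had a smaller p than Cd40lg (log2 fold change 0.78 ± 0.09, edgeR adjusted p = 0.0512, and 0.722 without the block). Tnf was at 84.9, 28.9 and 25.5 CPM in desIgf1 libraries 1, 2 and 3, against 49.4, 16.4 and 15.2 CPM in controls 1, 2 and 3, with overlap. Cd69, an early surface marker of receptor engagement, was at 74.5 ± 8.85 and 60.3 ± 8.73 CPM. Tnfrsf9 was at 139 ± 45.1 and 81.9 ± 32.7 CPM and Cd44 at 223 ± 36.6 and 136 ± 59.0 CPM, with overlap between the groups.

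**Figure D4:**
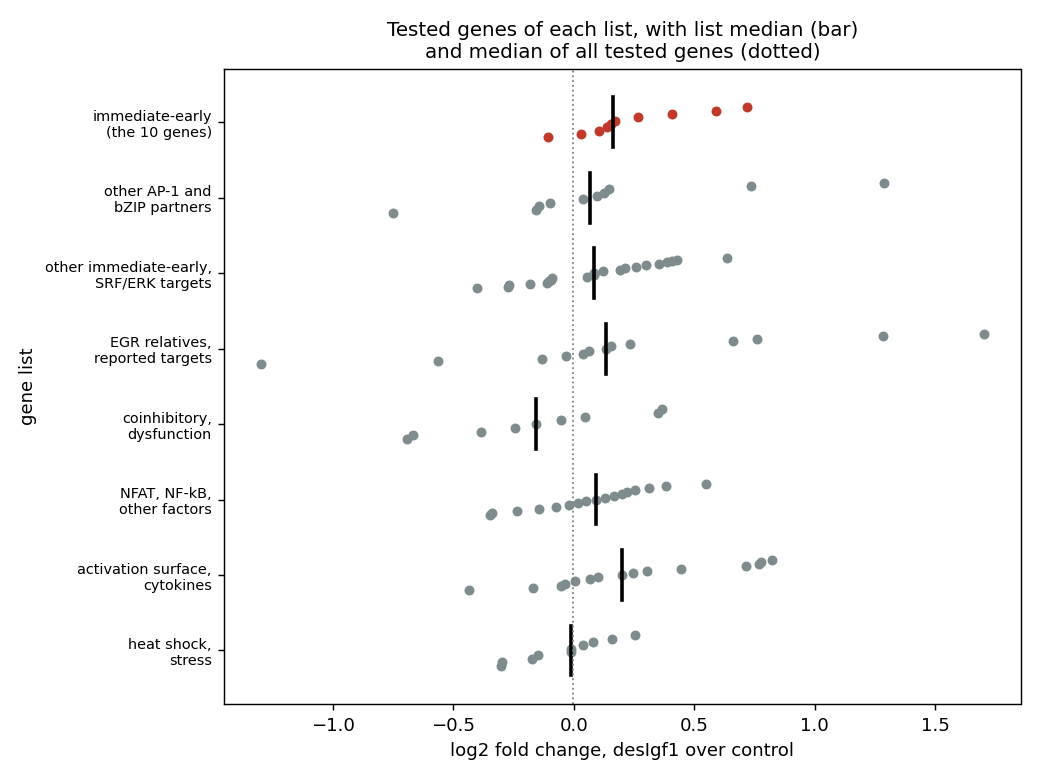
Log2 fold change of desIgf1 over control (x axis) for the tested genes of each list (y axis), with list medians as black bars and the median of all tested genes as a dotted line. The 10 immediate-early genes (red) have a median of 0.16, activation genes have a median of 0.20, and heat-shock genes have a median of -0.01.

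Immediate-early genes can also be induced by handling of cells before lysis, so heat-shock and stress genes were read beside them. They summed to 1170, 1146 and 1229 CPM in desIgf1 libraries 1, 2 and 3, against 1283, 1316 and 1109 CPM in controls 1, 2 and 3, with overlap between the groups. Hspa1a, Hspa1b and Hspb1 were under 1 CPM in every library. Hspa1a and Hspa1b are near-identical copies, and reads placed at several sites are in no gene count, so their values cannot be read as low expression. Of the 10 tested stress genes 4 were higher, 6 lower and 0 called. Dnaja1 was at 55.1 ± 4.36 and 49.4 ± 3.14 CPM, Hsph1 at 67.3 ± 19.1 and 82.8 ± 13.2 CPM, Hspa8 at 384 ± 39.1 and 433 ± 60.2 CPM and Ddit3 at 21.4 ± 5.39 and 17.97 ± 4.35 CPM, each in desIgf1 and then control libraries. The part of handling in the members' levels was not tested.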

How the data were processed

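RNA was measured in 6 libraries from sorted mouse Th17 cells. The deposited values are raw whole-number counts per gene, not normalized. Per the submitters' processing notes the authors used GRCm38 (mm10) and, with no order or role stated, R 3.4.3, HTSeq 0.7.2, STAR 2.5.3, DESeq2 1.18.1, Trim Galore 0.4.5 and SAMtools 0.1.18. For the annotation release and the strand setting, the sources used here give nothing. Reads placed at several sites (46.4 to 48.7% of entries) and ambiguous reads (0.712 to 0.761% of uniquely placed reads) are in no gene count, and 5 summary lines stayed out of the tests. A further 13.5 to 15.7% of uniquely placed reads were assigned to no counted feature.

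Symbols, coordinates and exon lengths came from GENCODE M21 (37693 identifiers matched). All genes were fitted under R 4.3.3 in edgeR 4.0.16 (robust quasi-likelihood test, TMM, low counts removed by filterByExpr at 10), and p-values were adjusted by Benjamini-Hochberg over the 13846 tested genes at a threshold of 0.05. The standard error is the log2 fold change divided by the square root of F. DESeq2 1.42.0 and limma 3.58.1 were alternatives. Libraries of one group were no copies (chi-square per degree of freedom 37.0 to 119). Deviations of same-numbered libraries correlated at 0.59, 0.32 and 0.55 across 13846 genes. The numbers were therefore used as pairs in the blocked fits and paired counts, although no label says what they mark. The main edgeR fit, DESeq2 and limma voom used the group alone.

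Other genes are named where they passed a test or had 1 of the 4 smallest p-values of their list, without the block, at a mean of at least 1 CPM. Relatives that complete a family are named besides, as are Tnf, Ier3, Ier5, Ndrg1 and Pdcd1 for their blocked or paired values. Nfkb1 and Rela are named as further NF-κB subunit genes. Members and lists were chosen with earlier results of these data known.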

Additional observations from a re-analysis of the deposited data

How the results depend on the processing

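Over 15 alternatives (RLE factors, no factors, no filter, DESeq2, limma voom, the replicate block and leaving out libraries) 135 of 150 log2 fold changes of the members kept their direction and their side of the threshold. RLE factors, no factors and limma voom left the count of genes called at 0. It was 16 without the filter, 208 by DESeq2 and 44 with the replicate block, and 0 to 1069 with libraries left out, where the high values came from blocked fits without both libraries of a number. Members called were 0 to 2 with libraries left out. Members without overlap were 1 to 3, against 17.4 to 34.0% of all tested genes. There were 3 without desIgf1 replicate 3 (34.0% of all genes) and 3 without control replicate 1 (19.2%). Signs turned with libraries left out for 6 members. Their log2 fold change ran from -0.25 to 0.43 for Egr1, -0.52 to 0.27 for Egr2, -0.055 to 0.31 for Egr3, -0.024 to 0.23 for Fos, -0.12 to 0.64 for Fosl2 and -0.0062 to 0.82 for Nr4a2. Nr4a3 ran from 0.47 to 0.90 and Nr4a1 from 0.18 to 0.62. For these shifts the cause was not tested. With 3 libraries a group, the group-only intervals of Nr4a2, Egr1, Egr2 and Fosl2 span more than 1.5 on the log2 scale.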
